A study of Mus musculus with 6 samples.

Results

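The 10 genes described here make, move and sense bile acids in the liver. They are the synthesis enzymes Cyp7a1, Cyp8b1, Cyp27a1 and Cyp7b1, the canalicular exporter Abcb11, the uptake carrier Slc10a1, the basolateral exporter subunits Slc51a and Slc51b, and the nuclear receptors Nr1h4 (FXR) and Nr0b2 (SHP). They were taken from the expression arrays by gene name, with every probe of each gene, and are 10 of the 37074 gene names on the array. The livers came from nude mice, a strain that lacks a thymus. In the sEV group, small extracellular vesicles (sEVs) shed by SW620, a human colorectal cancer cell line, were given by tail vein, 20 µg at a time, in 10 injections over 21 days. Control mice received PBS by that schedule. Of the 5 animals in each group, 3 livers were hybridised, and those of the sEV group had been drawn at random. Age and sex are not given in the labels, and vesicles of another source are not analysed here.

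Hepatocytes turn cholesterol into bile acids by a classical route that begins with CYP7A1 and an alternative route that begins with CYP27A1. The products are pumped into bile by the bile salt export pump, and most are taken back up from portal blood and used again. Bile acids bind FXR, which induces SHP and the export pumps, and SHP in turn represses transcription of Cyp7a1.

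Every array was a 1-colour Agilent mouse array with 62976 spots, and 49.9% to 54.7% of its spots for genes were well above background. No spot for a gene was saturated. The value used throughout is the normalized log2 signal, the log2 of a probe's processed signal after subtracting that array's 75th percentile of the same, which on the linear scale was 402 to 424 in sEV arrays and 440 to 506 in control arrays. Within a group the arrays correlated across genes at 0.991 to 0.995, and between groups at 0.975 to 0.984. All 6 arrays shared 1 slide and 1 scan, but their places differed: row 1 of the slide held sEV 1 and the 3 control arrays, and row 2 held sEV 2 and sEV 3. Results are therefore also given with the slide row as a block, a fit in which sEV 1 alone stands against the 3 controls and is assumed to vary like the other arrays. In whole liver, fewer cells of a type and less RNA per cell cannot be told apart.

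Of the 10 genes, 9 were measured well enough to test. In sEV livers Cyp7a1, Cyp27a1, Abcb11, Slc51b and Nr0b2 rose, by 1.59-fold (Abcb11) to 3.44-fold (Cyp7a1), and 0 fell. Cyp8b1, Cyp7b1, Slc10a1 and Nr1h4 did not pass the test, and no array showed Slc51a well above background. Calls were made at an adjusted p under 0.05 in limma's test over 19447 genes, of which 8.82% were higher and 8.11% lower in sEV livers. Higher genes were thus 52.1% of all calls, and 40.5% when arrays were scaled to their medians. All 9 log2 fold changes were positive, with a median of 0.68, against 0.02 over all genes tested. The sEV values lay wholly above the control values for 8 of the 9, which 22.2% of all genes tested also did. That count uses the brightest probe of each gene. On the second probes of Slc10a1 and Cyp7b1 the groups overlapped, and on that of Nr1h4 every sEV value lay below every control. With the slide row as a block 2 of the 9 were called, Cyp27a1 and Slc51b, beside 3.71% of all genes (1.25% higher). Within row 1 the call of Slc51b alone held, beside 3.13% of all genes. At 3 livers against 3, no exact permutation test of a single gene can reach a p below 0.1.

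**Figure D1:**
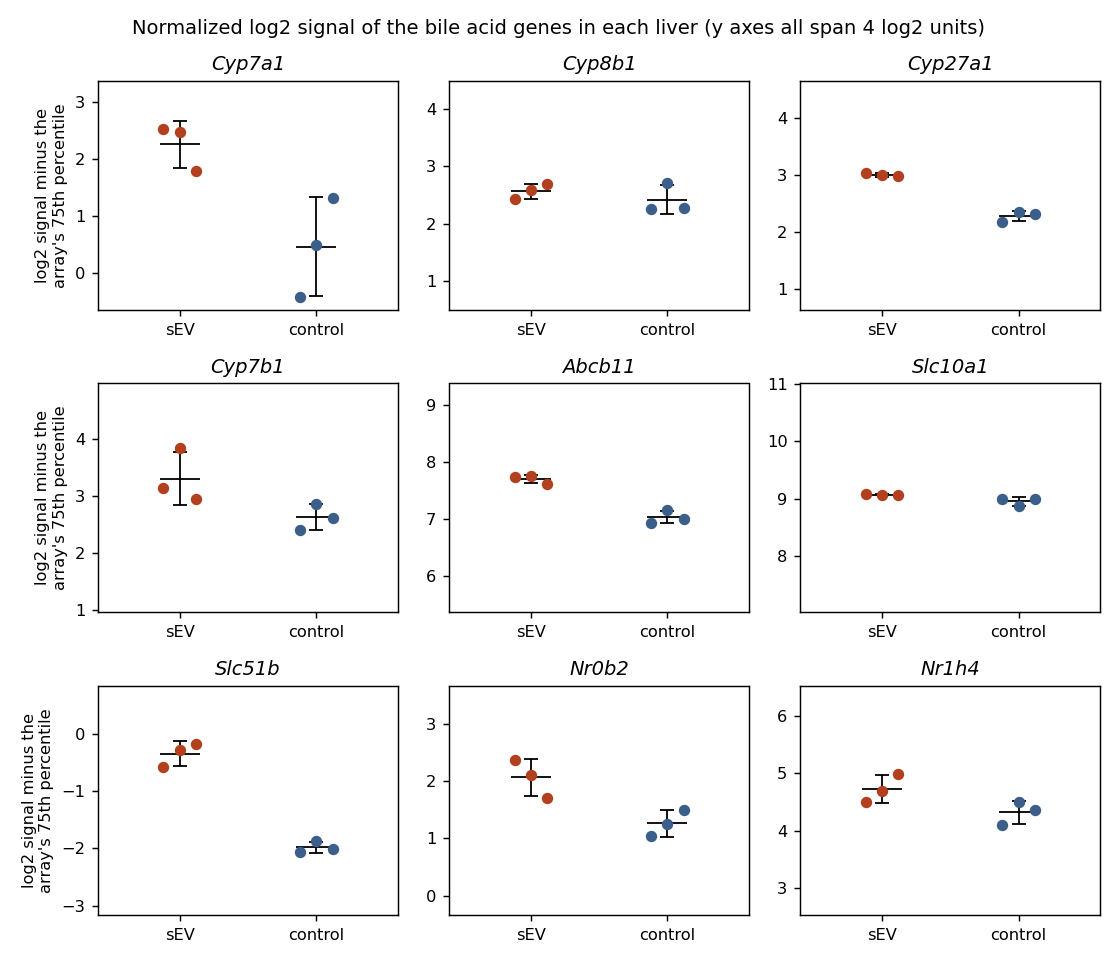
Normalized log2 signal of the 9 tested bile acid genes in each of the 3 sEV and 3 control livers, with a long line for each group mean, bars for the SD and y axes that all span 4 log2 units. Each panel shows the gene's brightest probe. The sEV points lie above all control points in each panel except that of Cyp8b1, and Cyp7a1 has the widest spread among control livers.

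The first enzyme of the classical route, Cyp7a1, sets the rate of bile acid synthesis. Its normalized log2 signal was 2.51, 2.46 and 1.78 in sEV livers, against -0.42, 0.50 and 1.32 in control livers. The groups did not overlap, but the control livers alone spanned 3.32-fold and the sEV livers 1.66-fold. The SD among controls, 0.87, was larger than that of 99.2% of the genes tested. Cyp7a1 averaged 2.25 ± 0.41 in sEV livers and 0.47 ± 0.87 in control livers (SD, n = 3 each). The log2 fold change of 1.78 ± 0.44 (SE) equals 3.44-fold, with a 95% interval of 1.64 to 7.22 and an adjusted p of 0.0416 in limma. The call rested on particular livers: without control 3 the log2 fold change was 2.21 (adjusted p = 0.0260), whereas leaving out any other array ended it. Dropping control 1 gave an adjusted p of 0.0792, dropping control 2 one of 0.106, and dropping sEV 1, sEV 2 or sEV 3 one of 0.0921, 0.108 or 0.0655. With the slide row as a block the log2 fold change was 2.05 (adjusted p = 0.158), since only sEV 1 shared a row with the controls. On no array was the second Cyp7a1 probe well above background, so it gives no fold.

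Cyp27a1, the mitochondrial sterol 27-hydroxylase that opens the alternative route, rose with a small spread. It read 3.04, 2.99 and 2.98 in sEV livers, against 2.18, 2.35 and 2.32 in control livers, and the groups were well apart. Its log2 fold change was 0.72 ± 0.08 (SE), or 1.65-fold with a 95% interval of 1.43 to 1.89 (adjusted p = 0.00516 in limma). The call held without any 1 array, with adjusted p between 0.0167 and 0.0214. It also held with the slide row as a block (log2 fold change 0.75, adjusted p = 0.0426), and within row 1 alone the adjusted p was 0.0719.

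Cyp7b1, the oxysterol 7α-hydroxylase that acts after CYP27A1, did not pass the test. The brighter of its 2 probes read 3.14, 3.83 and 2.94 in sEV livers, against 2.41, 2.86 and 2.61 in control livers. Every sEV value lay above every control value, yet the lowest sEV liver was only just above the highest control. The log2 fold change was 0.68 ± 0.25 (SE), or 1.60-fold with a 95% interval of 1.06 to 2.42 (adjusted p = 0.113 in limma). The second probe, tied to another transcript model, read 1.04, -1.22 and 0.86 in sEV livers, against 0.15, 0.54 and 0.42 in control livers. There sEV 2 was the lowest of the 6 livers, although it was the highest on the first probe. That probe's log2 fold change was -0.14 ± 0.58 (SE, adjusted p = 0.894 over all probes in limma).

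Cyp8b1, the sterol 12α-hydroxylase that directs synthesis to cholic acid, did not pass the test. It read 2.43, 2.59 and 2.69 in sEV livers, against 2.26, 2.71 and 2.28 in control livers. Control 2 exceeded all sEV livers, so the groups overlapped. Its log2 fold change was 0.15 ± 0.15 (SE), or 1.11-fold with a 95% interval of 0.866 to 1.42 (adjusted p = 0.520 in limma), which leaves room for a modest change either way.

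Among the exporters, Abcb11 encodes the bile salt export pump of the canalicular membrane and Slc51b the β subunit of the basolateral exporter OSTα-OSTβ. Abcb11 read 7.74, 7.76 and 7.62 in sEV livers, against 6.94, 7.16 and 7.01 in control livers. The lowest sEV liver was clearly above the highest control liver. Its log2 fold change of 0.67 ± 0.09 (SE) equals 1.59-fold, with a 95% interval of 1.36 to 1.86 and an adjusted p of 0.00887 in limma. It stayed past the threshold without any 1 array (adjusted p 0.0232 to 0.0339), and the slide row block gave 0.70 (adjusted p = 0.0636).

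Slc51b had the smallest p of the 9 genes. It read -0.58, -0.28 and -0.17 in sEV livers, against -2.07, -1.87 and -2.01 in control livers. All 3 sEV livers were more than 1 log2 unit above every control. The log2 fold change was 1.64 ± 0.13 (SE), or 3.12-fold with a 95% interval of 2.51 to 3.86 (adjusted p = 0.00147 in limma). It passed under each of the 21 alternatives run, with log2 fold changes of 1.26 to 1.76 and adjusted p up to 0.0206; the slide row block gave 1.40 (adjusted p = 0.0118). Its partner subunit Slc51a, needed for the transporter to reach the membrane, has 2 probes. The first read -6.64, -6.45 and -6.18 in sEV livers, against -6.85, -6.43 and -6.93 in control livers, and neither probe was well above background in any liver. Slc51a therefore has no fold and no test, and the arrays bear on 1 of the 2 subunits.

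**Figure D2:**
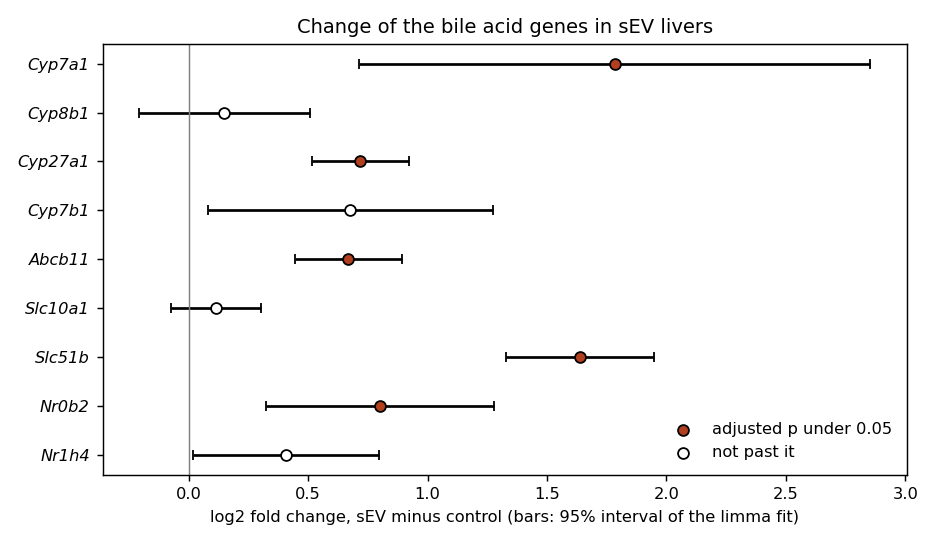
Log2 fold change (sEV minus control) of the 9 tested genes, with points at the limma estimate, bars for its 95% interval and filled points for an adjusted p under 0.05. The intervals of Cyp8b1 and Slc10a1 include 0, and those of Cyp7a1 and Slc51b reach furthest right.

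Slc10a1 encodes NTCP, the sodium-dependent carrier that takes conjugated bile acids up from portal blood. Its brightest probe read 9.08, 9.06 and 9.06 in sEV livers, against 9.0, 8.86 and 8.99 in control livers. The sEV values were nearly equal and just above the controls. The log2 fold change was 0.11 ± 0.08 (SE), or 1.08-fold with a 95% interval of 0.949 to 1.23 (adjusted p = 0.355 in limma). This probe is not specific by its annotation, which ties it to accessions of 4 genes (4930402H24Rik, Med16, Slc10a1 and Spc24). It also shares runs of 20 bases with 2 probes, of 2 other genes, and no single run is in both. The second probe is tied to Slc10a1 alone and read 6.59, 6.67 and 6.51 in sEV livers, against 6.33, 6.65 and 6.49 in control livers. Those groups overlapped, and its log2 fold change was 0.10 ± 0.11 (SE, adjusted p = 0.559 in the gene-level limma fit). The sign for the brightest probe turned under quantile normalization (-0.02) and in the authors' value table (-0.13), neither past the threshold.

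Probe letters are shown for the 3 genes with 2 tested probes each, 5′ to 3′ as on the array, with the array's own mm9 coordinates for the whole probe. The log2 fold changes of a pair differed in sign for Cyp7b1 and Nr1h4, none of them past the threshold. The Slc10a1 pair differed in the genes named by annotation, and the second Nr1h4 probe had no RefSeq accession. The 60 bases of the second Cyp7b1 probe are spread over 23829 bases of genome. Capitals mark 20 bases found in a probe of another gene, and the 5 probes without capitals share no such run with probes of other genes.
Slc10a1, brightest probe, chr12:82056539-82056598, minus strand, bases 4 to 33: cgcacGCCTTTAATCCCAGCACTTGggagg
Slc10a1, second probe, chr12:82054180-82054239, minus strand, bases 16 to 45: tgttgtaactcaaaaggaaataaactacaa
Cyp7b1, brightest probe, chr3:17972286-17972345, minus strand, bases 16 to 45: ccagttggttttgggtcacaaaacctgtca
Cyp7b1, second probe, outer ends chr3:17972720-17996548, minus strand, bases 16 to 45: ggtctgcctgggaatttaggttcgatcgct
Nr1h4, brightest probe, chr10:88917222-88917281, minus strand, bases 16 to 45: ggcatgcccttttggcctaattaaatcaat
Nr1h4, second probe, chr10:88960160-88960219, minus strand, bases 16 to 45: gaatgtaaagagcatatgtaaataagaata

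Of the receptors, Nr0b2 rose and Nr1h4 did not pass the test. Nr0b2, which encodes the DNA-binding-deficient repressor SHP, read 2.37, 2.11 and 1.71 in sEV livers, against 1.04, 1.25 and 1.50 in control livers. The groups did not overlap, and sEV 3 and control 3 were the nearest pair. Its log2 fold change of 0.80 ± 0.20 (SE) equals 1.74-fold, with a 95% interval of 1.25 to 2.43 and an adjusted p of 0.0406 in limma. Only without sEV 3 did the call hold among the 6 sets of 5 arrays (log2 fold change 0.98, adjusted p = 0.0329). Dropping control 1, 2 or 3 gave an adjusted p of 0.120, 0.107 or 0.0601, and dropping sEV 1 or sEV 2 one of 0.0764 or 0.103. The slide row block gave a log2 fold change of 1.11 (adjusted p = 0.0757), and scaling to each array's median gave 0.75 (adjusted p = 0.0670).

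Nr1h4 encodes FXR, the bile acid receptor. Its brighter probe read 4.51, 4.69 and 4.99 in sEV livers, against 4.10, 4.50 and 4.36 in control livers. The groups met closely, with sEV 1 at 4.51 and control 2 at 4.50. The log2 fold change was 0.41 ± 0.16 (SE), or 1.33-fold with a 95% interval of 1.01 to 1.74 (adjusted p = 0.136 in limma). The second probe read -0.51, -0.99 and -0.59 in sEV livers, against -0.48, -0.43 and -0.36 in control livers. Here every sEV liver was below every control, the opposite of the first probe, with a log2 fold change of -0.27 ± 0.14 (SE, adjusted p = 0.246 over all probes in limma). The direction thus differed between these probes, and neither passed. By annotation the first is tied to 3 RefSeq accessions of Nr1h4 and the second to 0, so the second is the less certain reading of FXR. Over all 15 probes of the 10 genes, 12 were bright enough to test and 5 were called, all higher, in a fit where 7.45% of probes were called higher.

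The order of the livers was shared by Cyp7a1 and Nr0b2, the enzyme and the gene for its repressor. In sEV livers both were highest in sEV 1, next in sEV 2 and lowest in sEV 3. In control livers both were lowest in control 1, next in control 2 and highest in control 3. So within each group the liver with more Cyp7a1 signal also had more Nr0b2 signal. With 3 livers in a group this is a description of these animals, and no correlation was computed. The order was not particular to this pair. Akr1d1 had it too, at 2.06, 1.84 and 1.74 in sEV livers, against 1.08, 1.22 and 1.57 in control livers. The share of all genes with this order was not computed.

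Promoter windows of the called genes are shown because these genes rose together, for 4 of the 5 with a window in the RefSeq table (GRCm38.p6). Each is the 250 bases before the annotated start, 5′ to 3′ on the gene's strand. Capitals mark the nuclear receptor hexamer AGGTCA or its reverse complement TGACCT.
Slc51b, chr9:65422774-65423023, minus strand: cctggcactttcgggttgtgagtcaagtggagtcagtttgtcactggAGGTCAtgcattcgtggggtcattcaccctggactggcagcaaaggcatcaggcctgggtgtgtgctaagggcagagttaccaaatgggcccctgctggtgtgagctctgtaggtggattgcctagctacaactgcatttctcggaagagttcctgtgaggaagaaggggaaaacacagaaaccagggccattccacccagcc
Abcb11, chr2:69342617-69342866, minus strand: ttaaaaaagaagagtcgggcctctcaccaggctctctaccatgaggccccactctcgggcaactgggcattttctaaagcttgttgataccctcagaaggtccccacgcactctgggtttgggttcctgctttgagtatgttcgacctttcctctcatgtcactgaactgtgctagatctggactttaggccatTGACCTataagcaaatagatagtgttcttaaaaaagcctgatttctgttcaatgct
Nr0b2, chr4:133553126-133553375, plus strand: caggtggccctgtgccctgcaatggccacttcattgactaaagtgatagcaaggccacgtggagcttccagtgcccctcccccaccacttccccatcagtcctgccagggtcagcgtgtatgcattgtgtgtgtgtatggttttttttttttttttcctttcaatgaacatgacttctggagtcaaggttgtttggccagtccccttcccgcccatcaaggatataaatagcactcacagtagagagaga
Cyp27a1, chr1:74713285-74713534, plus strand: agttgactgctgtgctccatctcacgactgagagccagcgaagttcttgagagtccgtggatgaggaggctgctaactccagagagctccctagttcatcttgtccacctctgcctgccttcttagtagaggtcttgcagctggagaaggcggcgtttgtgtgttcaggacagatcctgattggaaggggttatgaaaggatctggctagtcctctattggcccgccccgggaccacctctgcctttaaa
Windows of 8 of the 10 genes were searched on both strands, for exact letters only. The inverted repeat of AGGTCA spaced by 1 base (IR-1), which FXR binds with RXR, was in 0 of them. It was in 2 (0.00609%) of the 32851 RefSeq windows, so 0 among so few windows was all but fixed beforehand. Forms of IR-1 with a differing letter were not searched for, so the search cannot show that these windows lack one. The direct repeat of AGGTCA spaced by 1 base (DR-1) was in 0 windows of these 8 genes (0.0335% of all windows). TCAAGGTCA, the form bound by LRH-1, was also in 0 of them (0.387% of all windows), and both are too rare for this to tell. The hexamer alone, which is part of each of those motifs, was in 5 of the 9 windows of the 8 genes and in 14.0% of all windows. Those 5 windows belong to 5 genes, and no share per gene was computed over all genes. In Slc51b it lay at -203 to -198 from the start, and in Abcb11 at -56 to -51 on the other strand. Slc10a1, Slc51a and Nr1h4 also held it, none of which was called. Nr0b2 and Cyp27a1, both called, did not. A letter match is a description of the window, not a binding site.

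Another 54 genes of bile acid metabolism were listed, and 51 could be tested: 9 rose, 5 fell and 37 did not pass. Their median log2 fold change was 0.15, and 27.5% were called, beside 16.9% of all genes. Leaving out 1 array left 3 calls without control 1 or control 2, 8 without control 3 or sEV 1, 6 without sEV 2 and 7 without sEV 3. Cyp2c70, Slco1a1 and Cebpb were called in all 6 of these fits, and the other 11 genes in 0 to 3 of them. Slco1a4 was not called in the reported fit (log2 fold change 0.43 ± 0.23 SE, adjusted p = 0.239 in limma). It read 2.65, 1.82 and 1.85 in sEV livers, against 1.60, 1.69 and 1.73 in control livers, so sEV 1 stood apart. In the row block sEV 1 alone stands against the controls. With the slide row as a block, 2 of the 51 were called, Slco1a1 (lower) and Slco1a4 (higher), beside 3.71% of all genes.

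Among other synthesis genes, 3 of 12 tested rose and 0 fell in limma's test, also with 0 lower at an unadjusted p under 0.05. Called genes were 25% of that list, beside 16.9% of all genes. Cyp2c70, the mouse enzyme that makes muricholic acids, read 8.37, 8.43 and 8.49 in sEV livers, against 7.79, 7.83 and 7.83 in control livers, a narrow spread on both sides. Its log2 fold change was 0.61 ± 0.08 (SE, adjusted p = 0.00653 in limma). Cyp39a1, the 24-hydroxycholesterol 7α-hydroxylase, rose by 0.67 ± 0.15 on the log2 scale (adjusted p = 0.0323). Akr1d1, the steroid 5β-reductase, rose by 0.59 ± 0.15 (adjusted p = 0.0469).

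Of 6 conjugation genes, 2 rose and 1 fell, so 50% were called, beside 16.9% of all genes. Baat, which joins bile acids to taurine or glycine, had a log2 fold change of 0.51 ± 0.11 (SE, adjusted p = 0.0295 in limma). Acnat2, an acyltransferase related to Baat, had 0.94 ± 0.19 (adjusted p = 0.0236). The peroxisomal thioesterase gene Acot8 had -0.32 ± 0.08 (adjusted p = 0.0465).

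Of 15 other transporter genes, 1 rose and 2 fell, so 20% were called, near the 16.9% of all genes. Slco1a1, a sodium-independent organic anion uptake carrier, read -1.79, -0.77 and -1.20 in sEV livers, against 2.22, 1.43 and 2.03 in control livers. The groups were more than 2 log2 units apart, in the opposite direction to the called synthesis and export genes. Its log2 fold change was -3.15 ± 0.31 (SE), or 8.87-fold lower (adjusted p = 0.00336 in limma). It passed with the slide row as a block (-3.69, adjusted p = 0.0117). Slc10a2, the apical sodium-dependent bile acid transporter known from ileum and bile ducts, read 0.74, 1.03 and 1.71 in sEV livers, against -0.06, 0.02 and -0.05 in control livers. All sEV livers were higher, by 1.19 ± 0.24 (SE, adjusted p = 0.0237). Ephx1, the microsomal epoxide hydrolase, fell, with -0.45 ± 0.11 (adjusted p = 0.0365). The canalicular transporters Abcc2, an organic anion pump, and Abcb4, which moves phosphatidylcholine into bile, had log2 fold changes of 0.07 ± 0.11 (adjusted p = 0.664) and 0.08 ± 0.11 (adjusted p = 0.653). The basolateral pumps Abcc3 and Abcc4 had 0.43 ± 0.15 (adjusted p = 0.0990) and 0.25 ± 0.25 (adjusted p = 0.526). Whether these 4 transporters differ in change from Abcb11 and Slc51b was not tested.

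**Figure D3:**
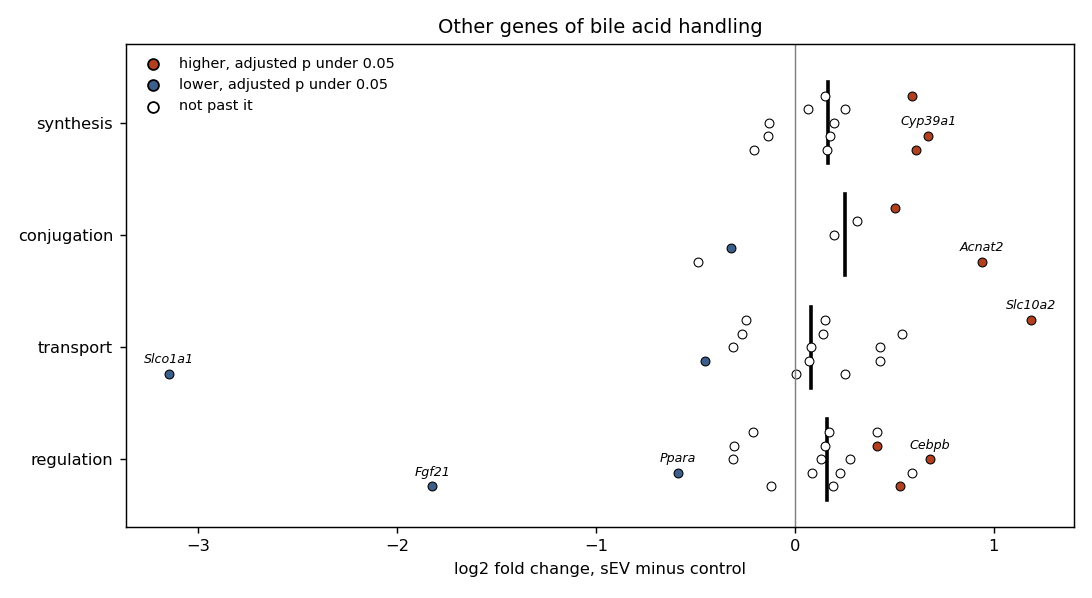
Log2 fold change (sEV minus control) of each tested gene in the lists of other bile acid synthesis, conjugation, transport and regulation genes, 1 point per gene (red higher, blue lower at an adjusted p under 0.05), with the list median as a bar and points spread vertically for legibility. Slco1a1 lies furthest left, at -3.15, Slc10a2 furthest right, at 1.19, and the 4 medians lie between 0 and 0.3.

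Of 18 tested regulators, 3 rose and 2 fell, so 27.8% were called, beside 16.9% of all genes. Hnf4a, a hepatocyte nuclear receptor that activates Cyp7a1 and Cyp8b1, read 7.65, 7.45 and 7.57 in sEV livers, against 6.90, 7.04 and 7.13 in control livers. Its groups did not overlap, with a log2 fold change of 0.53 ± 0.10 (SE, adjusted p = 0.0201 in limma). Cebpb, a liver transcription factor of the acute phase, rose by 0.68 ± 0.09 (adjusted p = 0.00890), and Nr1i2, which encodes the xenobiotic and bile acid receptor PXR, rose by 0.41 ± 0.11 (adjusted p = 0.0492). Ppara, the fatty acid receptor gene, had -0.59 ± 0.10 (adjusted p = 0.0167). Fgf21, a PPARα target that encodes a hepatokine, read -1.99, -2.19 and -0.92 in sEV livers, against 0.73, 0.10 and -0.45 in control livers, and had -1.82 ± 0.42 (adjusted p = 0.0333). The receptor pair for FGF15, the gut hormone that lowers Cyp7a1, did not pass: Fgfr4 had 0.19 ± 0.08 (adjusted p = 0.156) and Klb -0.21 ± 0.09 (adjusted p = 0.150). Nr5a2, which encodes LRH-1, had -0.31 ± 0.10 (adjusted p = 0.0883). Fgf15 and Vdr were not well above background.

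Other gene groups moved between the same livers, and their part in the results above was not tested. With the slide row as a block, 3 hepatocyte, 3 acute phase and 2 clock genes were called and 0 of the Kupffer cell, neutrophil and cholangiocyte lists, beside 3.71% of all genes. Leaving out 1 array moved the Kupffer cell count between 0 (without control 3) and 10 (without control 2), and the neutrophil count between 2 (without control 1) and 6. In the reported fit, without the block, 8.82% of all genes were called higher and 8.11% lower. Hepatocyte markers had 4 of 14 tested higher and 0 lower there (1 lower at an unadjusted p under 0.05), with a median log2 fold change of 0.26. The median level of that list was 7.34 to 7.44 in sEV livers, against 7.04 to 7.24 in control livers. Cps1, the urea cycle enzyme gene, had 0.84 ± 0.09 (SE, adjusted p = 0.00438 in limma). Albumin (Alb) had 0.15 ± 0.14 (adjusted p = 0.516). Acute phase genes had 13 of 20 higher and 0 lower, all 20 with positive values, with a median of 1.17. Their median level was 8.13 to 8.82 in sEV livers, against 6.03 to 7.16 in control livers. The serum amyloid gene Saa3 rose by 6.53 ± 0.39 and the lipocalin gene Lcn2 by 2.66 ± 0.30 on the log2 scale (adjusted p = 0.000540 and 0.00462 in limma).

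Kupffer cell markers had 6 of 12 higher and 0 lower (median 0.51) in the reported fit, beside 8.82% and 8.11% of all genes. Their median level was 2.40 to 2.80 in sEV livers, against 1.60 to 2.02 in control livers. The complement gene C1qa had 0.74 ± 0.13 (SE, adjusted p = 0.0174 in limma). Neutrophil genes had 6 of 12 higher and 0 lower (median 1.13), at 1.51 to 2.17 in sEV livers, against 0.51 to 0.59 in control livers. The 6 were S100a8, S100a9, Mpo, Elane, Ctsg and Ngp. The receptor genes Csf3r and Cxcr2 of that list did not pass, and 2 of the 12 genes had negative log2 fold changes. The granule protease gene Ctsg had 2.08 ± 0.25 (adjusted p = 0.00559). Cholangiocyte markers had 0 of 10 higher (also 0 at an unadjusted p under 0.05) and 1 lower in limma's test. The list's median was -0.04 and its level -1.94 to -1.20 in sEV livers, against -1.43 to -1.26 in control livers. The bile duct keratin gene Krt19 had -0.04 ± 0.33 (adjusted p = 0.945), and Cftr and Sctr were not well above background. Bile ducts also express Slc10a2 and Slc51b, and the part of bile duct cells in the values of these genes was not tested.

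**Figure D4:**
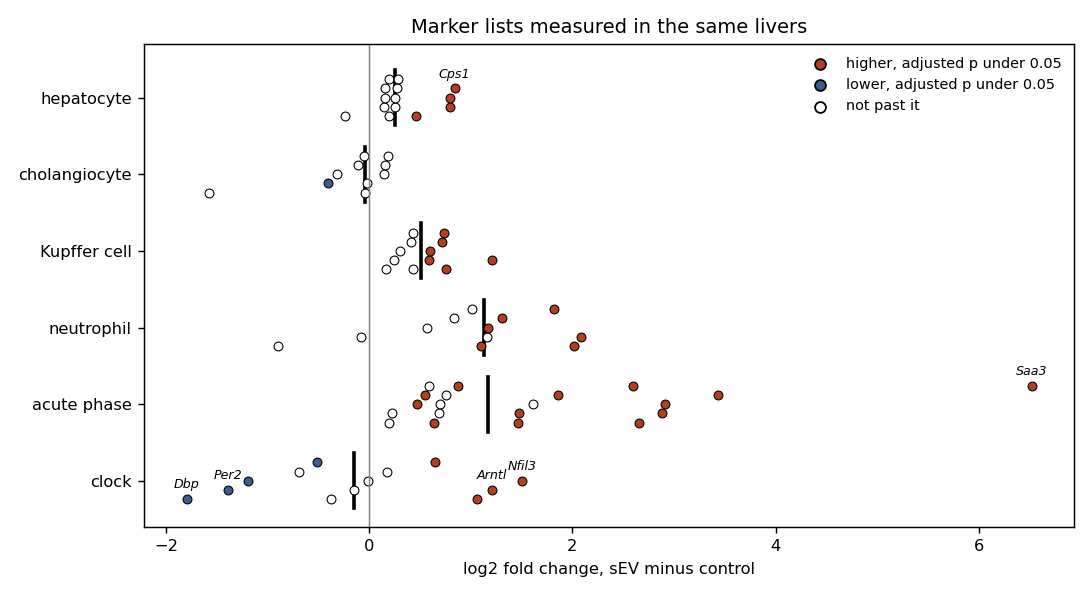
Log2 fold change (sEV minus control) of each tested gene in the hepatocyte, cholangiocyte, Kupffer cell, neutrophil, acute phase and clock lists, 1 point per gene, coloured where the adjusted p is under 0.05 and with the list median as a bar. Acute phase and neutrophil medians lie above 1, and called clock genes lie on both sides of 0.

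Clock genes were examined because liver Cyp7a1 follows the time of day. Of 13 tested, 4 were higher and 4 lower, beside 8.82% and 8.11% of all genes. Arntl (BMAL1), the core activator, read 1.44, 1.63 and 1.57 in sEV livers, against 0.54, 0.27 and 0.20 in control livers, a clean separation. It had a log2 fold change of 1.21 ± 0.12 (SE, adjusted p = 0.00327 in limma). Nfil3, a repressor that binds the same D-box as DBP, had 1.51 ± 0.16 (adjusted p = 0.00425). Dbp, a D-box activator, read 2.09, 2.08 and 2.07 in sEV livers, against 3.33, 3.94 and 4.36 in control livers. The sEV livers were almost equal, while the controls were spread, control 1 lowest and control 3 highest. The log2 fold change of Dbp was -1.80 ± 0.25 (adjusted p = 0.00828). With the slide row as a block, Arntl and Nfil3 were called and Dbp was not. The hour at which each liver was taken is not given in the labels, so the group and the hour cannot be told apart.

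**Figure D5:**
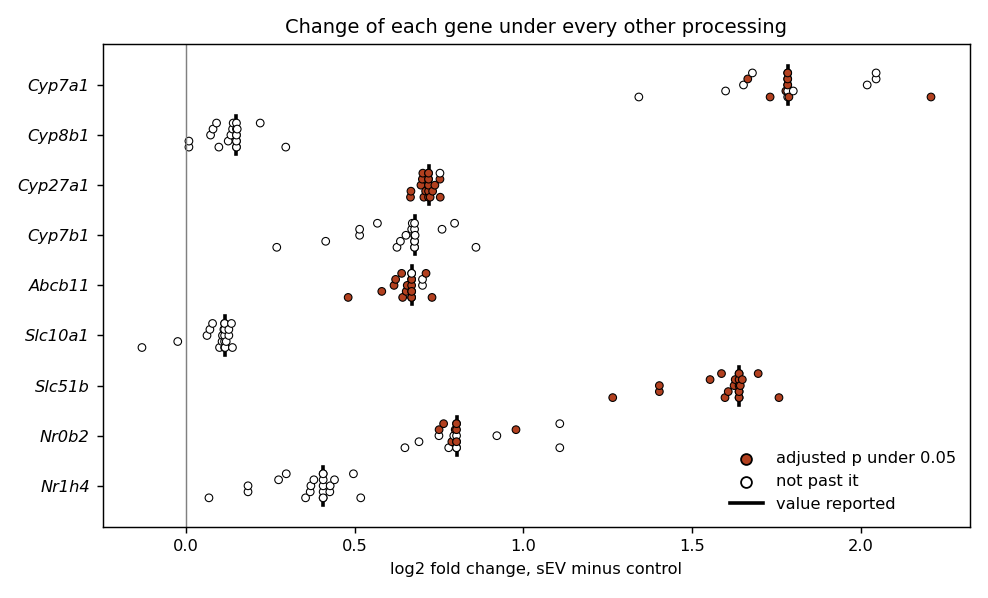
Log2 fold change (sEV minus control) of the 9 tested genes under the reported processing (black bars) and under 21 alternatives (points, filled where the adjusted p is under 0.05). Slc51b points are all filled, those of Cyp27a1 and Abcb11 mostly filled, those of Cyp7a1 and Nr0b2 mixed, and those of the other 4 genes open.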

How the data were processed

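RNA of 3 sEV and 3 control livers was hybridised to 1-colour Agilent arrays. The deposited files hold each spot's intensity (background-subtracted processed signal) from Agilent Feature Extraction 10.7.1.1, per the file headers. The deposited value table holds log2 values with a median of 4.50 in every column, correlated at 0.9995 or more with log2 processed signal; no label or header says how the authors scaled it, and it was an alternative only.

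Outlier spots (91 to 171 an array) were left out, spots of a probe averaged, and probes kept if well above background on at least 3 of 6 arrays. The brightest probe stood for its gene. limma 3.58.1 (lmFit, eBayes; R 4.3.3), with no covariate, was fitted on 19447 genes with Benjamini-Hochberg adjustment, and its ± is the SE; processing was tested on simulated data. The 10 genes and all lists were chosen with earlier results of these data known. From each other list up to 6 called genes were nameable by size of the moderated t. Fgfr4, Klb, Nr5a2, Hnf4a, Abcc2, Abcc3, Abcc4 and Abcb4 were nameable whatever their values. Slco1a4, Alb, Krt19, Csf3r and Cxcr2 were named after the values were seen. The values of 1 called gene of the lists are not reported here. Deviations of livers with the same number correlated at 0.02, 0.16 and 0.02, so the numbers were not taken as pairs. Livers are separate mice per the labels, and 3 a group limits the precision. Alternatives changed the background correction, scaling, filter, probe rule, variance model, array weights, replicate and slide row blocks, and left out each array.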

Additional observations from a re-analysis of the deposited data

How the results depend on the processing

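Without control 1 to sEV 3 in turn, the count of called genes among the 10 was 3 to 4, beside 5 as reported, the count among the other bile acid genes 3 to 8, beside 14, their median log2 fold change 0.089 to 0.18, beside 0.15, and the count of called probes of the 10 genes 3 to 4, beside 5. With the replicate block the counts were 3 genes, 8 other bile acid genes and 3 probes; Cyp7a1 and Nr0b2 missed the threshold there (adjusted p = 0.0884 and 0.0977 in limma). With the slide row as a block they were 2, 2 and 1, and within row 1, where 1 sEV array faces 3 controls, 1, 2 and 1. With no filter on dim probes 2 and 2 were called. Median scaling left 9 other bile acid genes and 3 probes, and moved the share of calls that were higher to 40.5% of all called genes, beside 52.1%. The authors' value table gave a median of 0.083 for the other bile acid genes. Counts over all genes were 3294 as reported, 4280 with normexp background correction, 711 without the filter, 2176 with the replicate block, 721 with the slide row block (611 shared with the reported calls in the same direction) and 1329 to 2761 without 1 array. Among the genes named by rule, the log2 fold changes that changed sign were those of Slc10a1 (quantile normalization, -0.024; authors' table, -0.13), Abcb4 (authors' table, -0.0081; without sEV 1, -0.0067) and Abcc2 (-0.0016 without sEV 1, up to 0.134 without sEV 2), none of them called. Slc51a joined the 9 tested genes where dim probes were not filtered, which made 10. The median of the tested genes stayed between 0.62 and 0.75 in all 21 alternatives. Over these, Cyp7a1 was called in 10, Nr0b2 in 11, Abcb11 in 18, Cyp27a1 in 20 and Slc51b in 21. These counts are not of separate tests. The exchange of the Slc10a1 probe, added after the plan, was 1 of the alternatives and bears on no other gene. Several others, such as the mean of a gene's probes, left the log2 fold changes of these 5 genes as reported. The clock list's median was -0.15 as reported and 0.15 with the slide row block. Signal over background limited Slc51a, Cftr and Sctr, which have no test in the reported fit. No cause of these differences was tested.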
